A study of Rattus norvegicus with 3 samples.

Results

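The genes described here encode 10 enzymes that remove superoxide and peroxides: the superoxide dismutases Sod1, Sod2 and Sod3, catalase (Cat), the glutathione peroxidases Gpx1 and Gpx4, glutathione reductase (Gsr) and the peroxiredoxins Prdx1, Prdx3 and Prdx6. They were chosen by name, and a probe was taken as theirs when its transcript accession belongs to that rat RefSeq symbol. All 10 were on the array, read by 12 probes on 49 spots, among 38973 genes in all. Of these, 16654 have a RefSeq symbol, and each remaining accession is counted here as a gene of its own. On each of the 3 arrays every one of these 49 spots was well above background, so no member was lost to a filter on low signals. After 2 spots marked as outliers were left out, 47 remained.

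Gene expression was measured in the cerebellar cortex of 9-week-old male Wistar rats on 1-colour arrays, on which Cy3-labelled RNA from 1 pool gives the fluorescence of each spot. Transient occlusion of the right middle cerebral artery (MCAO) was compared with a sham operation in which the right common carotid artery was only exposed. After 2 days the left cortex, contralateral to the infarct, and the right cortex, ipsilateral to it, were taken from the MCAO group, and the left cortex from the control group. Each array carried tissue combined from 4 rats, and both sides of the MCAO group came from the same rats. There was 1 array per group, so no value has a replicate check and no test was made. The array cannot be told apart from the group, and the ipsilateral comparison with the control group also sets a right against a left hemisphere. The only error given is that of the scanner software for a spot, which covers neither rats nor hybridisations.

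Markers of the cerebellar cortex were present on the arrays. All 10 granule cell and all 10 Purkinje cell markers were well above background on all 3. The scaled log2 signal of Cbln1, a granule cell transcript, was 15.34, 15.35 and 15.43 in contralateral, ipsilateral and control cortex, in this order, and that of Itpr1, a Purkinje cell transcript, was 16.01, 15.95 and 15.79. Each array held bulk tissue, in which fewer cells of a type and less RNA per cell cannot be told apart.

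Superoxide leaks from the respiratory chain and is made by oxidases. Superoxide dismutases turn it into hydrogen peroxide, which catalase splits into water and oxygen and which the glutathione peroxidases and peroxiredoxins reduce at the expense of glutathione or thioredoxin. Reduced glutathione is restored by glutathione reductase with NADPH, and in the brain, whose catalase activity is low, the peroxidases that use thiols carry much of this work.

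No member passed a log2 ratio of 1 or -1, the fold used in the methods of the study, in any of the 3 comparisons. Over all 38973 genes, 11.2% passed this fold in contralateral against control cortex, 16.5% in ipsilateral against control cortex and 15.2% between the sides. Many of those were dim: among the 22085 genes whose kept spots were all well above background on the 3 arrays, as for the 10 enzymes, the shares were 2.26%, 3.89% and 1.76%. Beyond a log2 ratio of 0.5 there was again none of the 10 enzymes, where 10.6%, 14.3% and 8.04% of the 22085 genes lay, but on the contralateral side 2 enzymes passed 0.5 without scaling, 2 with spike-in scaling and 1 in the deposited values, and on the ipsilateral side 4 without scaling. With shares of this size, a count of 0 among 10 genes is near the background. The median log2 ratio of the enzymes to the control group was -0.0018 contralaterally, and 5 genes lay above 0. This count was 1 without scaling, 2 when spike-in probes set the level and 4 for quantile normalization, normexp or the deposited values, and with scaling to the median the contralateral median was 0.030. At the 75th percentile scaling the ipsilateral median was 0.070 with 7 genes above 0, and between the sides it was -0.11 with 2 genes above 0. Over the 22085 genes these medians were 0.012, 0.030 and -0.0099. In the same order 52.4%, 55.9% and 47.0% of the 22085 genes lay above 0 at this scaling, and 55.4%, 65.2% and 34.6% of all genes.

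All of these ratios depend on how the arrays are brought to a common level. The signals were scaled to the same 75th percentile, which was 2103 on the contralateral, 1614 on the ipsilateral and 2336 on the control array before scaling. Without scaling, the median of the 22085 genes moved to -0.14 contralaterally and -0.50 ipsilaterally, and with scaling to 8 spike-in probes to -0.072 and -0.22. The enzymes moved by the same amounts, so that all 10 lay below the control group on the ipsilateral side in both cases. Each enzyme is therefore also given relative to the median of the 22085 genes, with its range over 8 ways of scaling and background treatment. Relative to that median, the median of the 10 enzymes was -0.014 contralaterally and 0.040 ipsilaterally, and over all settings tried it ran from -0.073 to -0.011 and from 0.038 to 0.047. The comparisons of both sides with the control group use the same control array.

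**Figure D1:**
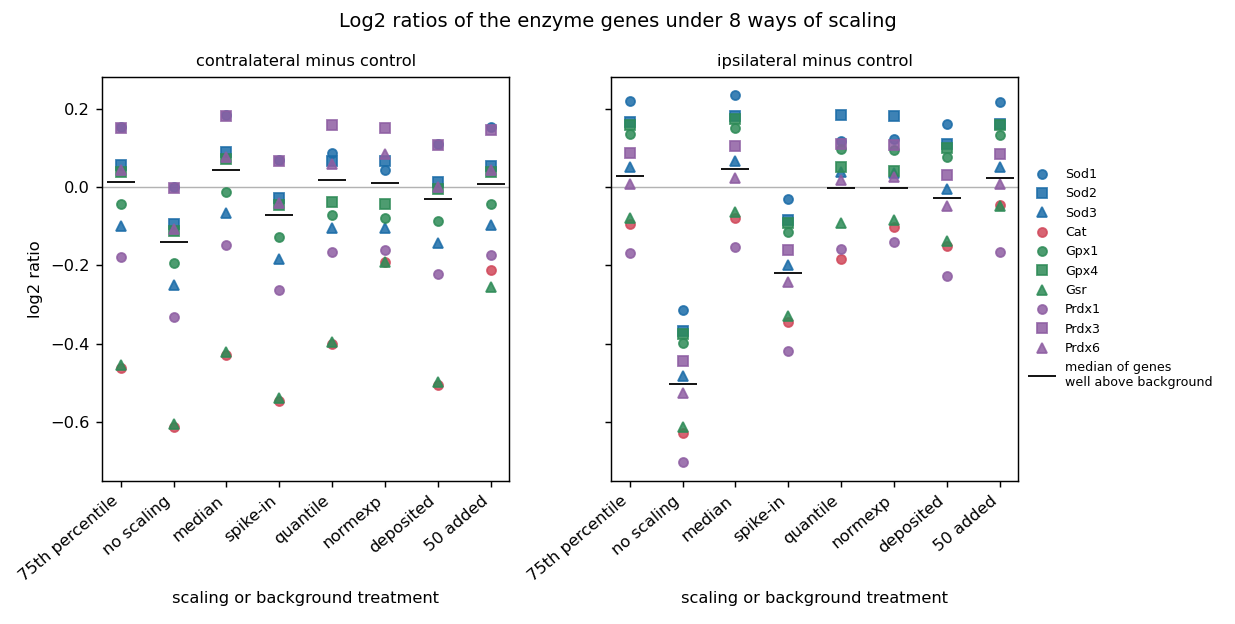
Log2 ratios of the 10 enzyme genes to the control group (vertical axis) on the contralateral (left) and ipsilateral side (right) under 8 ways of scaling and background treatment (horizontal axis); the black bar is the median of the 22085 genes well above background. Without scaling all 10 genes lie below 0 on the ipsilateral side, where the black bar is at -0.50.

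Sod1, the copper and zinc dismutase of the cytosol, had a scaled log2 signal of 14.75 on the contralateral, 14.81 on the ipsilateral and 14.59 on the control array, read from 1 spot. The control array was thus the lowest and the ipsilateral array the highest. The log2 ratio to the control group was 0.15 contralaterally and 0.22 ipsilaterally, each with a scanner error of 0.20. At this scaling Sod1 had the highest ratio on either side, with Prdx3 at 0.15 close to it contralaterally, but with quantile normalization or normexp Prdx3 was higher contralaterally and Sod2 ipsilaterally. The ipsilateral ratio of Sod1 exceeded its scanner error at this scaling. It did not at 0.16 in the deposited values, at 0.12 with quantile normalization or normexp, or at -0.030 with spike-in scaling. Without scaling the ipsilateral ratio of Sod1 was -0.31, beyond the error in the other direction. Relative to the median of the 22085 genes its ratios were 0.034 to 0.14 and 0.12 to 0.20 over the 8 scalings. Between the sides Sod1 differed by -0.066.

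Sod2 encodes the manganese dismutase of the mitochondrial matrix. Its scaled log2 signal was 10.70 on the contralateral, 10.81 on the ipsilateral and 10.64 on the control array, from 1 spot, ranked as for Sod1. The ratio was 0.057 contralaterally and 0.17 ipsilaterally, within a scanner error of 0.20, and against their median it was 0.045 to 0.057 and 0.14 to 0.19 over the scalings. Between the sides it was -0.11.

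Sod3 encodes the copper and zinc dismutase that is secreted and binds to the extracellular matrix. It was read from 10 spots, of which 9 were kept, with scaled log2 signals of 10.97 on the contralateral, 11.12 on the ipsilateral and 11.07 on the control array. The 9 spots had an SD of 0.032, 0.034 and 0.035 in the same order. The spots of the contralateral array, from 10.92 to 11.01, did not overlap those of the ipsilateral array, from 11.06 to 11.18, or those of the control array, from 11.03 to 11.14. With the outlier spot kept, the contralateral spots reached those of the control array. Under the 7 other scalings, a look taken after the values were seen, the contralateral spots lay wholly below the ipsilateral ones in 4 and below the control ones in 5, but without scaling the ipsilateral spots lay wholly below the contralateral ones. Spots of 1 array share 1 hybridisation, so this shows the precision within an array and is no replicate of the condition. For Sod3, Gpx1 and Prdx1 alike, the share of other probes whose spots lay apart was not counted. Over 2249 probes with several kept spots well above background, the median SD over spots was 0.046, 0.047 and 0.047 in the same order. With so small a spread, spots can lie apart at small ratios, and this is not read as particular to these enzymes. The log2 ratio of Sod3 to the control group was -0.099 contralaterally and 0.052 ipsilaterally, and it was -0.15 between the sides. Set against the median of the 22085 genes, the ratio between the sides was -0.16 to -0.14 over the scalings, but as it stands it was 0.23 without scaling and 0.014 with spike-in scaling.

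**Figure D2:**
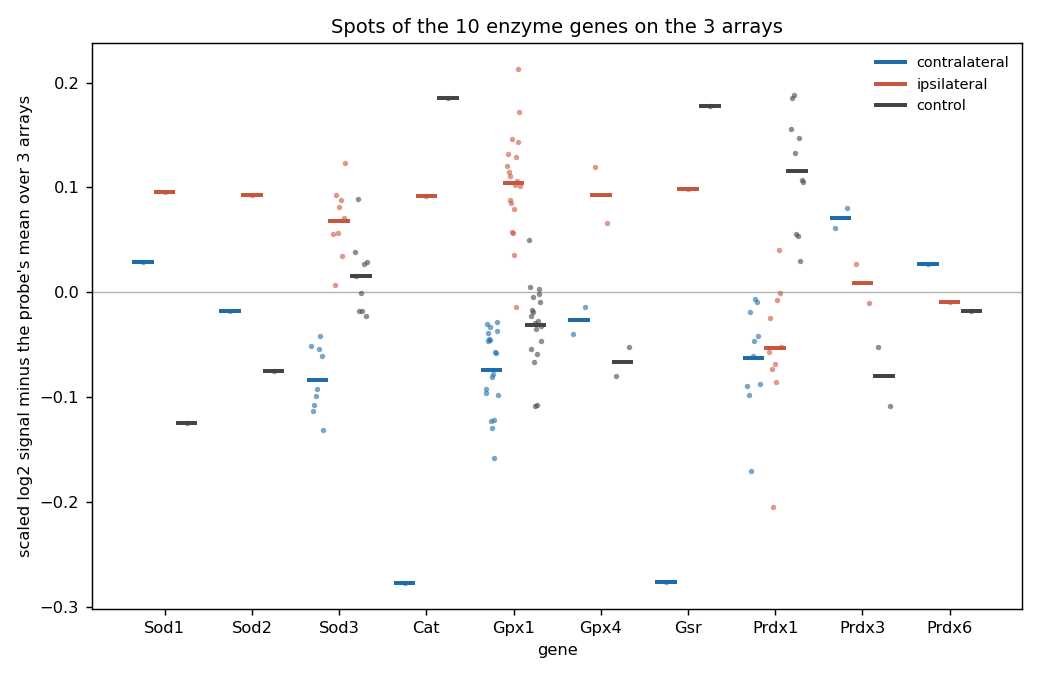
Scaled log2 signal of each kept spot of the 10 enzyme genes (horizontal axis), minus the mean of its probe over the 3 arrays (vertical axis), with a bar at the value of the gene on each array. The contralateral bars of Cat and Gsr lie lowest, and the spots of Gpx1 and Sod3 on the contralateral array lie below those on the ipsilateral array within each probe at the 75th percentile scaling shown.

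Catalase is a haem enzyme of peroxisomes. Cat was dim and read from 1 spot, with a processed signal of 37.6, 37.3 and 57.6 in contralateral, ipsilateral and control cortex, in this order before scaling. The scaled log2 signal was 5.16 on the contralateral, 5.53 on the ipsilateral and 5.62 on the control array. The contralateral array was the lowest, and the ipsilateral and control arrays lay close together. The log2 ratio to the control group was -0.46 contralaterally, with a scanner error of 0.24, and -0.094 on the ipsilateral side, with an error of 0.24. The contralateral ratio, -27.4% on the linear scale, was the lowest among the 10 enzymes at this scaling, next to Gsr at -0.45, which was lower with normexp or 50 added to the signal.

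How far this ratio can be read is limited by the low signal. Among the 4177 genes with a mean scaled log2 signal from 5 to 6.5, a range set after the values were seen, the central 95% of contralateral ratios ran from -0.87 to 1.09, and 11.2% lay lower than Cat. The ratio was -0.19 with normexp background correction and -0.21 with 50 added to the signal, against -0.61 without scaling. It stayed negative under all 8 scalings, relative to the 22085 genes as well, at -0.47 to -0.20. Between the sides the scaled ratio was -0.37, but the unscaled signals were almost equal and gave 0.013. The range relative to the 22085 genes was -0.36 to -0.10 for this ratio.

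Gpx1 encodes the selenium-containing peroxidase that reduces hydrogen peroxide in the cytosol and mitochondria. It was read from 20 spots of 2 probes, of which 19 spots were kept, and its scaled log2 signal was 11.95 on the contralateral, 12.13 on the ipsilateral and 11.99 on the control array. The ipsilateral array was the highest. The log2 ratio to the control group was -0.043 contralaterally and 0.14 ipsilaterally, and it was -0.18 between the sides. Both probes gave like values between the sides, -0.16 for A_42_P805300 and -0.19 for A_44_P1164156, and within each probe no spot of the contralateral array reached the lowest spot of the ipsilateral array at this scaling. Under the 7 others this held in 4 for A_42_P805300 and in 3 for A_44_P1164156, and without scaling the spots of both probes lay apart in the reverse order. For A_42_P805300 the spots ran from 12.29 to 12.39 on the contralateral array and from 12.45 to 12.57 on the ipsilateral array. With the median of the 22085 genes taken off, the ratio between the sides was -0.19 to -0.17 over the scalings, although it was 0.20 as it stands without scaling. Of the 2307 genes with a mean log2 signal of 12 or more, 2.90% had a lower ratio between the sides. The scanner error of 0.20, which averaging over the 19 kept spots did not reduce, is larger than the difference.

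Gpx4 encodes the selenium-containing peroxidase that reduces lipid hydroperoxides within membranes. It was read from 2 probes of 1 spot each, and its scaled log2 signal was 14.99 on the contralateral, 15.11 on the ipsilateral and 14.95 on the control array. The ratio to the control group was 0.039 contralaterally and 0.16 ipsilaterally. The probes gave 0.040 and 0.038 on the contralateral side and 0.20 and 0.12 on the ipsilateral side, with the same sign on each side. Relative to the 22085 genes the contralateral ratio of Gpx4 was -0.056 to 0.030 over the scalings, with both signs, and the ipsilateral ratio was 0.042 to 0.14. The ipsilateral array was thus the highest for Gpx4 as for Gpx1, but without scaling the ipsilateral ratio of Gpx4 was -0.38.

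Gsr encodes glutathione reductase, the flavoprotein that returns oxidised glutathione to its reduced form with NADPH. Like Cat it was dim and read from 1 spot, with an unscaled signal of 58.0, 57.7 and 88.3 in contralateral, ipsilateral and control cortex, in this order. The scaled log2 signal was 5.78 on the contralateral, 6.16 on the ipsilateral and 6.24 on the control array. The log2 ratio to the control group was -0.45 contralaterally, with a scanner error of 0.22, and -0.079 on the ipsilateral side. Its contralateral ratio relative to the 22085 genes was -0.47 to -0.20 over the scalings, and without that reference it was -0.19 with normexp. Between the sides it was -0.37, and 0.0080 without scaling. In its signal range 11.4% of genes had a lower contralateral ratio. At the 75th percentile scaling Cat and Gsr were the only enzymes whose contralateral ratio exceeded its scanner error. Against the same errors, neither did with normexp and Cat did not with 50 added to the signal. Prdx1 did as well in the deposited values, with spike-in scaling and without scaling, and Sod3 without scaling. Without Cat and Gsr the median of the other 8 enzymes, a subset chosen after the values were seen, was 0.042 contralaterally and 0.11 ipsilaterally.

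**Figure D3:**
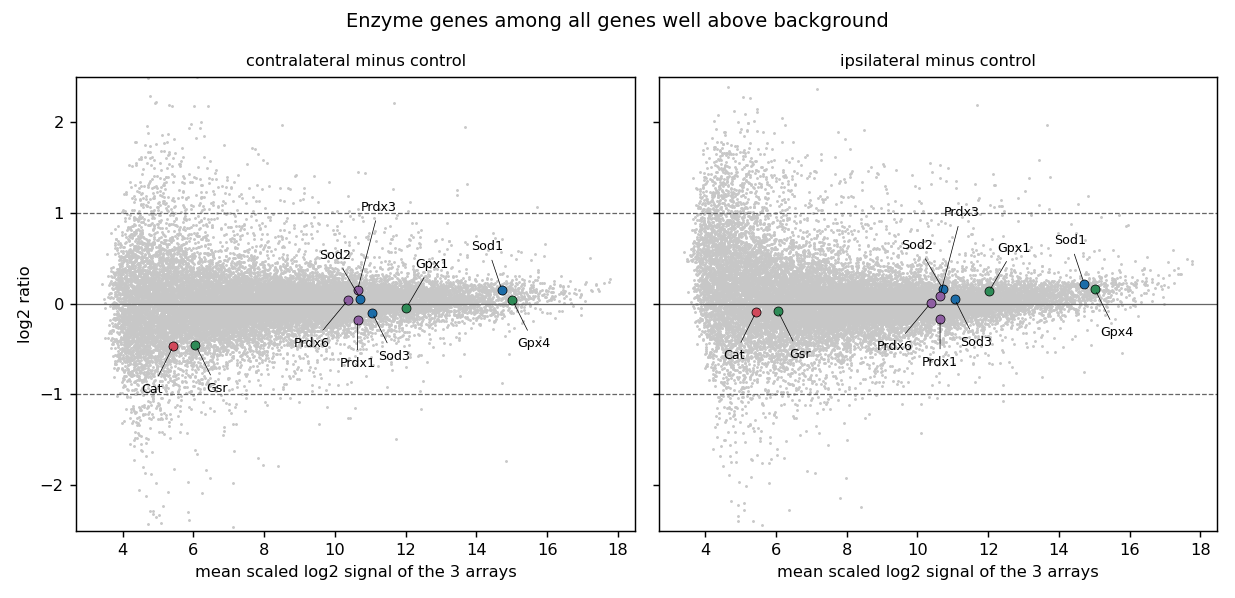
Log2 ratio to the control group (vertical axis) against the mean scaled log2 signal of the 3 arrays (horizontal axis) for the 22085 genes well above background (grey; ratios beyond 2.5 are not drawn) and the 10 enzyme genes (coloured by role). Dashed lines mark log2 ratios of 1 and -1, and Cat and Gsr lie at the dim end, where ratios spread most.

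Prdx1 encodes a cytosolic peroxiredoxin that reduces hydrogen peroxide with thioredoxin. It was read from 10 spots of 1 probe, and its scaled log2 signal was 10.58 on the contralateral, 10.59 on the ipsilateral and 10.76 on the control array. The SD over spots was 0.050, 0.066 and 0.056. At this scaling both sides of the MCAO group lay below the control group and close to each other, whereas without scaling they differed by 0.37. The log2 ratio was -0.18 contralaterally and -0.17 ipsilaterally, each just within the scanner error of 0.20, and -0.0096 between the sides. The spots of the contralateral array, up to 10.63, did not reach those of the control array, from 10.67, while on the ipsilateral array the highest spot was at 10.68 and overlapped them. Contralateral spots lay wholly below the control ones in 6 of the 7 other scalings, and ipsilateral spots did so in 3. Taken relative to the 22085 genes, the ratio was -0.19 to -0.17 contralaterally and -0.20 to -0.14 ipsilaterally over the scalings. Of the 6001 genes with a mean log2 signal from 9 to 12, 9.85% had a lower ratio contralaterally and 13.1% ipsilaterally.

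Prdx3, the peroxiredoxin of mitochondria, had a scaled log2 signal of 10.71 on the contralateral, 10.65 on the ipsilateral and 10.56 on the control array, from 2 spots of 1 probe. The control array was the lowest and the contralateral array the highest, whereas for Prdx1 the control array was the highest and the order of the sides turned in 4 of the 7 other scalings. The ratio was 0.15 contralaterally and 0.089 ipsilaterally, and relative to the 22085 genes it was 0.14 and 0.059 to 0.11 over the scalings. Prdx6 encodes a peroxiredoxin that reduces phospholipid hydroperoxides and uses glutathione. Its scaled log2 signal was 10.40 on the contralateral, 10.37 on the ipsilateral and 10.36 on the control array, from 1 spot. Its levels lay close together at this scaling, with ratios of 0.045 and 0.0083 to the control group and 0.037 between the sides. Relative to the 22085 genes the ratio of Prdx6 was 0.033 to 0.074 contralaterally and -0.022 to 0.027 ipsilaterally, with both signs on the ipsilateral side.

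**Figure D4:**
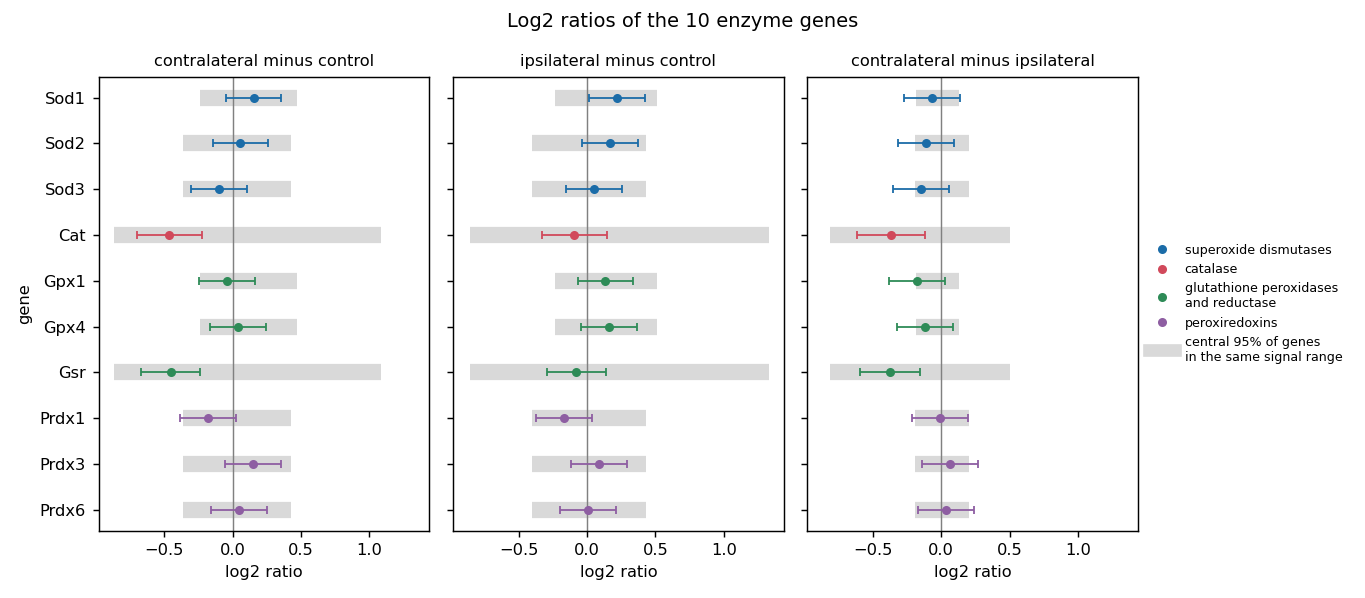
Log2 ratios (horizontal axis) of the 10 enzyme genes in the 3 comparisons, with bars for the scanner error of the ratio; grey bands hold the central 95% of genes well above background in the same range of mean signal. Each of the 30 ratios lies within its grey band, and the bands are widest for the dim genes Cat and Gsr.

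Set side by side by role, the ratios to the control group ran from -0.099 to 0.15 on the contralateral and from 0.052 to 0.22 on the ipsilateral side for the dismutases. For the glutathione peroxidases and reductase they ran from -0.45 to 0.039 and from -0.079 to 0.16. For the peroxiredoxins they ran from -0.18 to 0.15 and from -0.17 to 0.089. All 3 dismutases lay above the control group on the ipsilateral side, as did 55.9% of the 22085 genes. Without scaling or with spike-in scaling the 3 dismutases lay below it, and Sod3 also in the deposited values, at -0.0052. Between the sides 2 of the 10 genes, Prdx3 and Prdx6, were above 0, where 47.0% of the 22085 genes and 34.6% of all genes lay above 0. This count turned with the scaling, to 10 without scaling, 7 with spike-in scaling and 3 in the deposited values or with scaling to the median.

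Promoter sequence from RefSeq on the GRCr8 build was at hand for 7 of the 10 genes; Sod3, Prdx6 and Gsr had no entry. The 250 bases before the annotated start are printed for Sod1, with the highest ratios at the 75th percentile scaling, for Cat, with the lowest contralateral one at that scaling, and for Prdx1, below the control group on both sides and read from 10 spots. The ranks of Sod1 and Cat turn with the scaling, as given above. Capitals mark matches, on either strand, to the core of the antioxidant response element (TGACNNNGC), the GC box (GGGCGG), the CCAAT box (CCAAT) and the TATA box (TATAAA). Sequences are written 5′ to 3′ on the strand of the gene, so that a match on the other strand reads as its reverse complement, such as CCGCCC or ATTGG. Matches of 1 motif can overlap, as the GC boxes of Prdx1 do, and no match overlaps one of another motif.
Sod1, chr11:42942573-42942822, plus strand: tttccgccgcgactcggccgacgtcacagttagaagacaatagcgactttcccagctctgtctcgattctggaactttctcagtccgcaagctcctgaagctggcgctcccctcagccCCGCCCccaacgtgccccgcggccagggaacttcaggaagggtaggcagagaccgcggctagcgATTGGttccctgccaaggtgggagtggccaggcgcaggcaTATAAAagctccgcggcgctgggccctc
Cat, chr3:110329527-110329776, minus strand: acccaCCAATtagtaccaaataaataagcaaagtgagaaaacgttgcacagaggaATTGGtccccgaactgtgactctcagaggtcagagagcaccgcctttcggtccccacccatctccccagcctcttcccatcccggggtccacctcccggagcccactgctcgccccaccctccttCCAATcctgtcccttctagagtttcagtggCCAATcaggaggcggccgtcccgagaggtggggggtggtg
Prdx1, chr5:135383656-135383905, plus strand: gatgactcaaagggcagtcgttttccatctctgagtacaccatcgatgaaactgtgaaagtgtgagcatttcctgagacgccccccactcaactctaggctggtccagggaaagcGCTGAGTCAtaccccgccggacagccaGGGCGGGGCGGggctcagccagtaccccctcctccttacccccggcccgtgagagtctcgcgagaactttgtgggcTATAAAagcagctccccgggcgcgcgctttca
The antioxidant response element core was found in 2 of the 7 genes, Prdx1, from -135 to -127 relative to the start, and Sod2, from -35 to -27, in each on the other strand. It was in 10.1% of the same windows of all 33469 promoters in the table. The window of Cat held no GC box and 4 CCAAT boxes, whereas 34.0% of all promoters held any CCAAT box and 0.565% held at least as many. GC boxes were found in the windows of the other 6 genes, for Gpx4 in 2 of its 3 windows, and in 30.5% of all promoters. Sod1 and Prdx1 held a TATA box, from -28 to -23 and from -32 to -27, as did 12.9% of all promoters. A match describes the letters in this window and not the binding of a factor.

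Other genes of the same pathway were described by 9 lists with 123 genes on the array, of which 106 were well above background by the same measure. Contralaterally 8 of them exceeded a ratio of 0.5 and 2 lay below -0.5, and ipsilaterally 8 and 3 did. This was 9.43% and 10.4%, near the 10.6% and 14.3% of the 22085 genes. Without scaling, each list median lay below 0 on the ipsilateral side, as did the median of all genes. Among the other peroxide enzymes, Gpx3, the secreted glutathione peroxidase, was at 0.51 contralaterally and 0.49 ipsilaterally, Gpx2 at 0.37 and 0.64, and Gpx7 at -0.28 and -0.051. In the thioredoxin and glutaredoxin system, which serves the peroxiredoxins, Txnip, an inhibitor of thioredoxin, was at 0.58 and 0.67, and Txn1 was at -0.17 and -0.085. Slc7a11, the cystine transporter that feeds glutathione synthesis, was at -0.31 and -0.49, and Idh1, which supplies NADPH, at -0.33 and -0.35. Under the 7 other scalings Slc7a11 ranged from -0.46 to -0.16 contralaterally and from -1.03 to -0.21 ipsilaterally. Idh1 ranged from -0.49 to -0.29 and from -0.88 to -0.29, and ipsilaterally Gpx7 went down to -0.58 and Txn1 to -0.62.

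Among the sources of superoxide and hydrogen peroxide, the dim oxidase gene Duox1 was at -1.13 and -1.25 and Xdh, xanthine dehydrogenase, at 0.84 and 0.72, while Ncf4, a subunit of the phagocyte oxidase, was at -0.089 and 0.76. Of the transcriptional regulators, Maff was at 1.04 and 1.04, the only gene of the 9 lists above 1 at this scaling. The copper oxidase gene Cp was at 0.54 and 0.91, and Pex11a, which acts in peroxisome division, at 0.67 and 0.64. These sizes depended on the scaling. Under the 7 other scalings Maff ranged from 0.59 to 1.07 contralaterally and from 0.50 to 1.05 ipsilaterally, and thus lay below 1 in some of them. Duox1 ranged from -1.28 to -0.36 and from -1.79 to -0.46, so that it did not always pass -1. Xdh was as low as 0.51 and 0.19. Ipsilaterally the value nearest 0 was 0.23 for Ncf4, 0.38 for Cp, 0.14 for Txnip, 0.11 for Gpx2 and 0.11 for Pex11a, and Gpx3 reached -0.045. Contralaterally Gpx2 went down to 0.16 and Gpx3 to 0.24, and Ncf4 ranged from -0.24 to 0.087, with both signs.

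**Figure D5:**
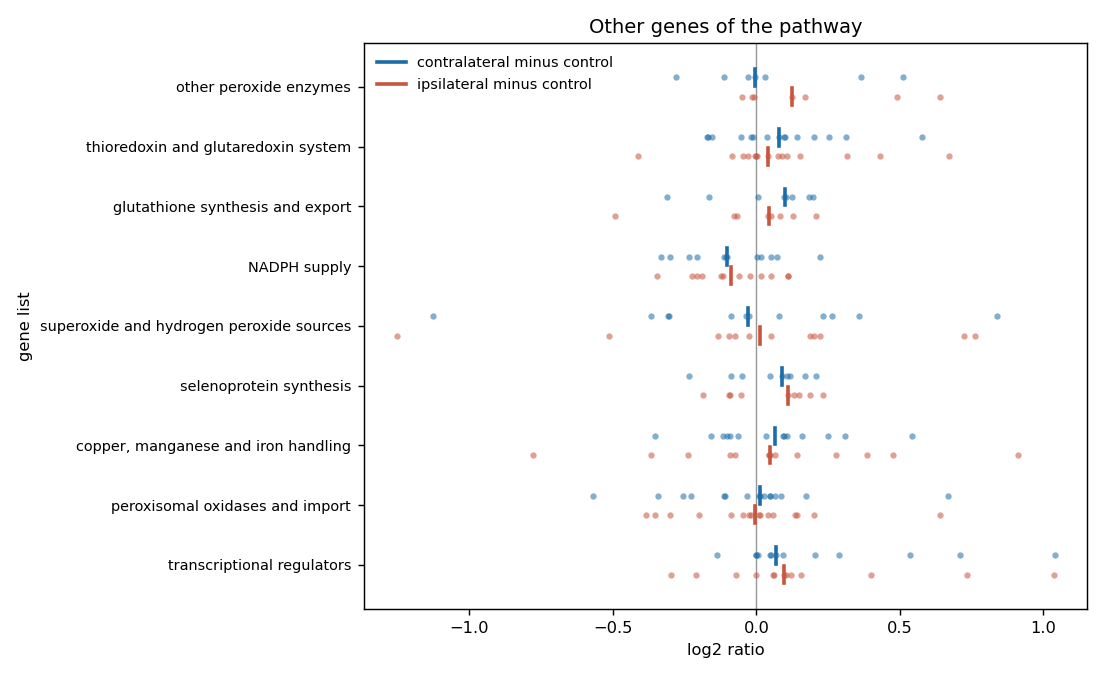
Log2 ratios to the control group (horizontal axis) of the 106 other pathway genes well above background in 9 lists (vertical axis), with 1 point per gene and a bar at the list median for the contralateral (blue) and ipsilateral side (red). The medians lie between -0.10 and 0.12, and Duox1 and Maff lie outermost.

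Markers of other cell types differed between the pools beside these values. Red cells carry catalase, Gpx1 and Sod1. Of 8 erythroid markers on the array, 3 were well above background and 5 were dim, and these 3 were lower than in control cortex on either side, at medians of -0.85 contralaterally and -0.88 ipsilaterally. Their summed scaled signal was 1157, 1050 and 2130 in contralateral, ipsilateral and control cortex, in this order, most of it from Hba-a1. With normexp these medians were -0.39 and -0.42. Of 11 microglia and macrophage markers, 8 were above the control group contralaterally and 9 ipsilaterally, with medians of 0.28 and 0.55, and their summed signal was 13877, 17517 and 10077, led by C1qb. Their ipsilateral median was 0.021 without scaling and 0.31 with spike-in scaling. The 10 of 12 choroid plexus markers well above background had medians of -0.64 and 0.35, of which the ipsilateral one was below 0 without scaling, and 10 of them lay below the control group contralaterally and 3 ipsilaterally, with a summed signal of 11994, 78756 and 35952, led by Ttr. The part of these cell types in the values of the 10 enzymes was not tested.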

How the data were processed

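The authors deposited, for each spot, a background-subtracted intensity from Agilent Feature Extraction 12.1.0.3 without scaling between arrays. A second deposited table equals this intensity times 1.12 for the contralateral, 1.45 for the ipsilateral and 1.04 for the control array, on a linear scale with medians of 139, 140 and 147. The study's methods name a normalization to control samples, and whether the factors are that step is not stated.

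Here log2 signals were brought to a common 75th percentile over 58717 spots. Spots with an outlier mark on at least 1 array (759) were dropped, the spots of each probe averaged and the probes of each gene averaged after that. Accessions without version were looked up among RefSeq symbols of GRCr8, where 17622 of 39957 were found, and the rest kept their accession. The number of arrays limits the precision. Errors of ratios combine the errors per spot from the scanner software, averaged over spots and probes and not reduced for their number.

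The 10 enzymes and the 21 lists (9 of the pathway, 12 of cell types) were chosen with earlier results of these data known. Genes named are the 10 enzymes and some, not all, of those in each list with the highest and lowest ratio on either side among genes well above background in each group, those past a log2 ratio of 1 and the brightest cell type marker. Signal ranges were set after the values were seen.

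Other settings tried were no scaling, the median or 8 spike-in probes as the level, quantile normalization, normexp with offset 50 (on median signals, as there is no mean signal column), the deposited table, an addition of 50, a filter for probes well above background on all 3 or on at least 1 array, all outlier spots kept, the brightest probe alone and each probe left out. Averaging, ratios and counts were tested on simulated data. Software was Python 3.11.15 (numpy 2.4.6, pandas 2.3.3, matplotlib 3.10.9) and R 4.3.3 (limma 3.58.1).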

Additional observations from a re-analysis of the deposited data

Results flagged for a closer look

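Some values lay on opposite sides of the control group in the contralateral and the ipsilateral cortex. With 1 array per group none of these differences was tested, and many are smaller than the scanner error. Among the enzymes, Sod3 was at -0.099 and 0.052, a difference of -0.15, and Gpx1 at -0.043 and 0.14, a difference of -0.18. The median of the 10 enzymes was at -0.0018 and 0.070, a difference of -0.072. Without scaling and with scaling to spike-in probes these 3 values were below 0 on both sides, and so was Sod3 in the deposited values. With scaling to the median, the median of the enzymes was above 0 on both sides, at 0.030 and 0.086.

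Among the list medians, the contralateral median minus the ipsilateral median was -0.13 for the other peroxide enzymes, -0.043 for the superoxide and hydrogen peroxide sources and 0.017 for the peroxisomal oxidases and import. It was 0.030 for the granule cell markers, -0.98 for the choroid plexus markers and 0.13 for the markers of forebrain, brainstem and deep nuclei neurons. The median over genes of the ratio between the sides can differ from this. In the same order it was -0.14, 0.093, 0.032, 0.080, -0.90 and 0.40, and for the sources its sign is opposite, with 8 genes above and 4 below 0. Without scaling all 6 of these list medians were below 0 on both sides.

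Single genes of the pathway lists lay on opposite sides at the 75th percentile scaling, where Ncf4 differed by -0.85, Slc30a10, a manganese exporter, by 0.87, Ddo by -0.77 and Ppargc1a by 0.37. Of the choroid plexus markers, Ttr differed by -2.93, Sostdc1 by -2.89, Folr1 by -1.80, Aqp1 by -1.21 and Otx2 by -0.33. Of the 10 measured, 7 lay above the control group ipsilaterally and 3 below it, among them Slc4a5 at -2.12 contralaterally and -1.20 ipsilaterally. Of the other cell type markers, Nrgn differed by 2.04, Cdh5 by -0.52, Dynlrb2 by 0.49, Ptprc by -0.45, S100a8 by 0.35, Rarres2 by -0.32, Dcn by -0.26, Ptgds by -0.19 and Neurod6 by -0.11. Under at least 1 other scaling both sides of Ncf4, Slc30a10, Ddo, Ppargc1a, Otx2, Cdh5, Ptprc, Rarres2, Dcn, Ptgds and Neurod6 lay on the same side of the control group. Under the 7 other scalings the difference nearest 0 was -0.31 for Ncf4, 0.26 for Slc30a10, -0.19 for Ddo and 0.23 for Ppargc1a. It was -2.54 for Ttr, -1.94 for Sostdc1, -1.07 for Folr1, -0.78 for Aqp1, 1.19 for Nrgn, -0.14 for Cdh5, 0.35 for Dynlrb2, -0.071 for Ptprc and 0.14 for S100a8. The sign turned under at least 1 scaling for Otx2, Rarres2, Dcn, Ptgds and Neurod6, which reached 0.055, 0.060, 0.12, 0.19 and 0.27.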

How the results depend on the processing

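Of the 582 values of single enzymes under another setting, 542 differed from the value given by less than its scanner error and 40 by more. The median over the enzymes moved by more than this error in 3 of 72 cases and the medians of the other lists in 73 of 693. No enzyme passed a log2 ratio of 1 under any setting tried. Leaving out either probe of Gpx1 or Gpx4, either filter on dim probes, use of the brightest probe alone and keeping of outlier spots moved no enzyme by more than its error. Low signal over background is a limit on the ratios of Cat and Gsr, beside the scaling. The cause of the shifts was not tested, except that no scaling and spike-in scaling move each gene of an array by 1 amount.

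Without scaling the median of the enzymes was -0.46 on the ipsilateral side and 0.27 between the sides, and with spike-in scaling it was -0.18 on the ipsilateral side. Beyond a log2 ratio of 0.5 from the control group, where the reported count is 0, there were 2 enzymes on the contralateral side without scaling and 2 when spike-in probes set the level. For the deposited values this count was 1, and on the ipsilateral side it was 4 without scaling. On the ipsilateral side the ratios without scaling were Sod1 -0.31, Sod2 -0.37, Sod3 -0.48, Cat -0.63, Gpx1 -0.40, Gpx4 -0.38, Gsr -0.61, Prdx1 -0.70, Prdx3 -0.45 and Prdx6 -0.53. With spike-in scaling they were Sod1 -0.030, Sod2 -0.083, Sod3 -0.20, Cat -0.34, Gpx1 -0.11, Gpx4 -0.091, Gsr -0.33, Prdx1 -0.42, Prdx3 -0.16 and Prdx6 -0.24. Between the sides the ratios without scaling were Sod1 0.32, Sod2 0.27, Sod3 0.23, Cat 0.013, Gpx1 0.20, Gpx4 0.26, Gsr 0.0080, Prdx1 0.37, Prdx3 0.44 and Prdx6 0.42. With normexp the contralateral ratios were Cat -0.19 and Gsr -0.19, and Cat -0.20 and Gsr -0.20 relative to the genes well above background, and the ratios between the sides were Cat -0.089 and Gsr -0.11, and Cat -0.10 and Gsr -0.12 in relative terms. With 50 added to the signal the contralateral ratio of Cat was -0.21, or -0.22 in relative terms. The relative values, the median without Cat and Gsr and the overlap of spots under other scalings were chosen after seeing the data.

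Counts of all genes beyond a fold, given here for contralateral to control, ipsilateral to control and between the sides, were lowest under settings that raise or drop dim signals. Beyond a log2 ratio of 1 they were 4359, 6440 and 5939, and 110, 139 and 39 with normexp, 182, 223 and 102 with 50 added, 548, 954 and 427 with probes well above background on all 3 arrays and 2385, 3359 and 2750 on at least 1. Beyond 0.5 they were 739, 988 and 244 with normexp, 1016, 1392 and 538 with 50 added, 2572, 3448 and 1968 with the filter on all 3 arrays and 5637, 6903 and 5286 with the filter on at least 1. Over the 22085 genes well above background they were 500, 860 and 388 beyond 1, and 64, 95 and 19 with normexp and 95, 125 and 30 with 50 added. Beyond 0.5 these were 2351, 3150 and 1776, and 579, 789 and 102 with normexp, 733, 988 and 204 with 50 added and, without scaling, 11833 on the ipsilateral side and 4275 between the sides. Genes above 1 made up 42.1, 81.0 and 12.2% of all genes beyond 1 in the 3 comparisons, 31.3, 43.9 and 29.0% without scaling, 35.9, 67.2 and 18.0% with spike-in scaling, 51.1, 54.1 and 46.1% with quantile normalization, 53.6, 61.2 and 46.2% with normexp, 48.9, 64.1 and 42.2% with 50 added and 63.1, 79.9 and 12.2% with the filter on all 3 arrays.

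The medians of the other lists moved as follows. On the ipsilateral side they were, without scaling, other peroxide enzymes -0.41, thioredoxin and glutaredoxin system -0.49, glutathione synthesis and export -0.49, NADPH supply -0.62, superoxide and hydrogen peroxide sources -0.52, selenoprotein synthesis -0.42, copper, manganese and iron handling -0.49, peroxisomal oxidases and import -0.54, transcriptional regulators -0.44, granule cell -0.55, Purkinje cell -0.44, Bergmann glia and astrocyte -0.61, oligodendrocyte -0.59, microglia and macrophage 0.021, neutrophil and other leukocyte -0.31, endothelium and mural cell -0.66, erythroid -1.41, choroid plexus -0.19, leptomeninges -0.76, ependyma -0.66 and forebrain, brainstem and deep nuclei neurons -0.61. With spike-in scaling they were other peroxide enzymes -0.13, thioredoxin and glutaredoxin system -0.21, glutathione synthesis and export -0.20, NADPH supply -0.34, superoxide and hydrogen peroxide sources -0.24, selenoprotein synthesis -0.14, copper, manganese and iron handling -0.20, peroxisomal oxidases and import -0.26, transcriptional regulators -0.15, granule cell -0.26, Purkinje cell -0.16, Bergmann glia and astrocyte -0.32, oligodendrocyte -0.30, microglia and macrophage 0.31, neutrophil and other leukocyte -0.030, endothelium and mural cell -0.38, erythroid -1.13, choroid plexus 0.098, leptomeninges -0.47, ependyma -0.38 and forebrain, brainstem and deep nuclei neurons -0.33. Between the sides they were, without scaling, other peroxide enzymes 0.24, thioredoxin and glutaredoxin system 0.37, glutathione synthesis and export 0.45, NADPH supply 0.38, superoxide and hydrogen peroxide sources 0.47, selenoprotein synthesis 0.37, copper, manganese and iron handling 0.36, peroxisomal oxidases and import 0.41, transcriptional regulators 0.38, granule cell 0.46, Purkinje cell 0.40, Bergmann glia and astrocyte 0.43, oligodendrocyte 0.39, microglia and macrophage 0.051, neutrophil and other leukocyte -0.070, endothelium and mural cell 0.34, erythroid 0.51, choroid plexus -0.52, leptomeninges 0.092, ependyma 0.66 and forebrain, brainstem and deep nuclei neurons 0.78. With normexp they were erythroid -0.39 and choroid plexus -0.42 on the contralateral side. With normexp they were neutrophil and other leukocyte -0.0046 and erythroid -0.42 on the ipsilateral side. With normexp they were neutrophil and other leukocyte -0.081 and choroid plexus -0.54 between the sides. With 50 added to the signal they were erythroid -0.46 on the contralateral side. With 50 added to the signal they were erythroid -0.45 on the ipsilateral side. With 50 added to the signal they were neutrophil and other leukocyte -0.22 and choroid plexus -0.59 between the sides.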

Other observations

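The medians of the other lists, on the contralateral and then the ipsilateral side, were 0.080 and 0.040 for the thioredoxin and glutaredoxin system, 0.10 and 0.045 for glutathione synthesis and export and -0.10 and -0.087 for NADPH supply. They were 0.090 and 0.11 for selenoprotein synthesis, on which Gpx1 and Gpx4 depend, and 0.064 and 0.047 for copper, manganese and iron handling, which serves the dismutases and catalase. They were 0.070 and 0.096 for the transcriptional regulators, -0.0044 and 0.12 for the other peroxide enzymes, -0.031 and 0.012 for the superoxide and hydrogen peroxide sources and 0.011 and -0.0067 for the peroxisomal oxidases and import. In selenoprotein synthesis, Selenop, which carries selenium to the brain, was at 0.21 and 0.18, Sephs2 at 0.17 and 0.23, Sepsecs at -0.049 and -0.19 and Scly at -0.23 and -0.092. Tfrc, the transferrin receptor, was at -0.35 and -0.37. The ipsilateral values of Selenop and Sephs2 were below 0 without scaling. All of these list medians were negative ipsilaterally when no scaling was applied.

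Of the cell type lists, the medians were 0.017 and -0.013 for granule cells, 0.14 and 0.093 for Purkinje cells, -0.072 and -0.073 for Bergmann glia and astrocytes, -0.081 and -0.054 for oligodendrocytes and -0.19 and -0.13 for endothelium and mural cells. They were -0.50 and -0.22 for the leptomeninges, -0.018 and -0.13 for the ependyma and 0.050 and -0.076 for neurons of the forebrain, brainstem and deep nuclei. Those of granule cells, Purkinje cells and these other neurons were all negative on the ipsilateral side without scaling. Only 3 of 9 leukocyte markers were well above background on all 3 arrays, with medians of 0.16 and 0.22. Aldoc, the brightest of the glial markers, was at 0.27 and 0.44, and Fabp7 at -0.79 and -0.89. Cd163, a macrophage receptor that takes up haemoglobin, was at 1.52 and 1.89, and Cx3cr1 at 0.78 and 1.27. The haemoglobin gene Hba-a1 was at -0.88 and -1.03. Nrgn and Tac1, markers of neurons outside the cerebellar cortex, were at 1.83 and 1.93 on the contralateral side and at -0.21 and 0.23 ipsilaterally. Of the 6 such markers measured, 3 lay above the control group contralaterally and 3 below it, namely Slc17a6 at -0.022, Spp1 at -0.20 and Neurod6 at -0.054. Under the 7 other scalings the values of Cd163 went down to 0.58 contralaterally and 0.76 ipsilaterally and those of Cx3cr1 to 0.62 and 0.74, so that both were below 1 in some of them. Hba-a1 was at -0.84 and -0.96 where nearest 0, and the contralateral values of Nrgn and Tac1 went down to 1.08 and 1.12. Aldoc and Tac1 were below 0 ipsilaterally without scaling. The part of these markers in the values of the enzymes was not tested.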
